A study of Mus musculus with 12 samples.

Results

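The genes described here carry the symbols of subunits of the mitochondrial respiratory chain and ATP synthase, and were measured by RNA sequencing in mouse liver. They are called subunit genes below, although the rule also takes Atp5sl and Atp5s, which are not structural subunits and are counted with complex V by their symbols. They were chosen by gene symbol alone: every Nduf gene of the A, B, C, S and V series, every Uqcr gene, the Cox4 to Cox8 genes, every Atp5 gene and Sdha to Sdhd. This rule took 82 of the 18560 genes in the deposited table and used no measured value. The livers came from mice aged 12 months and gave 12 libraries, 3 in each of 4 groups: WT (wild-type) males, OXR1A-/- males, WT females and OXR1A-/- females. OXR1A is a protein isoform of Oxr1, a gene whose products are known to protect cells against oxidative damage, and the study asked how the liver transcriptome differs without it. The labels give neither the strain, nor the cells in which the allele is lost, nor whether each sample is a different animal. The p-values therefore reflect sample-to-sample spread, part of which may be technical. Oxr1 itself lay between 12.1 and 23.3 FPKM in WT males and between 22.1 and 25 in OXR1A-/- males, and between 17.4 and 20.7 against 19.7 and 21.0 in females. These values sum every isoform of the gene, so they do not check the loss of OXR1A.

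The respiratory chain sits in the inner mitochondrial membrane. Complex I (NADH dehydrogenase) and complex II (succinate dehydrogenase, also an enzyme of the citric acid cycle) pass electrons to coenzyme Q, complex III passes them on to cytochrome c and complex IV (cytochrome c oxidase) to oxygen. Complexes I, III and IV pump protons as they do so, and complex V (ATP synthase) uses the proton gradient to make ATP. Hepatocytes are rich in mitochondria, and the chain supplies the ATP for glucose and urea synthesis and takes up the electrons released by fatty acid oxidation. Most subunits are encoded in the nucleus, and a few core subunits of complexes I, III, IV and V in mitochondrial DNA; the latter are not analysed here.

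Values are FPKM (fragments normalised for transcript length and for the mapped total), so levels of different genes can be set side by side per length. The sources used here give no read totals, and the depth behind each value is therefore unknown. Testing was limited to genes that reached 1 FPKM in 3 or more libraries, which left 11514 genes of the table and 78 of the 82 subunit genes: 35 of complex I, 4 of complex II, 8 of complex III, 14 of 18 of complex IV and 17 of complex V. Ndufa4, once assigned to complex I and now known as a complex IV subunit, and its paralog Ndufa4l2 were counted with complex IV. The 7 hepatocyte markers summed to between 57654 and 66831 FPKM in WT males and between 47458 and 51286 in OXR1A-/- males, without overlap, and to between 55222 and 63889 in WT females and 61330 and 62421 in OXR1A-/- females. Between the male genotypes 0 of these 7 passed the test, with a median log2 difference of -0.34 and 1 of 7 above 0. Alb made up most of the sums, with 39817, 42312 and 44456 FPKM in WT males and 35762, 32372 and 31720 in OXR1A-/- males. Apoa1 and Serpina1a were also lower without overlap, and Ttr, Cps1 and Fgb overlapped. Hnf4a was higher in OXR1A-/- males without overlap (123, 83.4 and 116 FPKM against 160, 142 and 125). Macrophage markers summed to between 67.2 and 105 FPKM in WT males and between 153 and 338 in OXR1A-/- males, sinusoidal endothelial markers to between 70.4 and 76.6 against between 106 and 120, and stellate cell markers to between 90.2 and 109.5 against between 138 and 213. In bulk liver, fewer cells of a type and less RNA per cell cannot be told apart.

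The libraries were not alike in how they represented short and long transcripts, and the subunit genes follow that difference. In the library WT_M_2 short transcripts were high and long ones low: the slope of a gene's log2 deviation on log2 transcript length over the tested genes was -0.21, while OXR1A_F_2 had -0.091, OXR1A_M_3 -0.078 and the other 9 libraries lay between -0.0034 and 0.12. Subunit transcripts are short. Their median length was 786 bases against 2829.5 bases for all tested genes, and 50 of 78 were under 1000 bases, against 7.98% of all tested genes. The median subunit gene deviated from its 12-library mean by 0.45 on the log2 scale in WT_M_2, by 0.25 in OXR1A_F_2 and by 0.13 in OXR1A_M_3, and by -0.26 in OXR1A_M_1, the library with the steepest slope in the other direction (0.12). All tested genes under 1000 bases deviated by 0.26 in WT_M_2 and 0.21 in OXR1A_F_2. With a linear trend on length removed from each library, the median of the subunit genes was 0.079 in WT_M_2 and 0.11 in OXR1A_F_2. This step takes out the slope alone and keeps the offset of each library. The median deviation of all tested genes, before this step, was -0.29 in WT_M_2 and 0.0076 in OXR1A_F_2. Against the other genes of WT_M_2 the subunit genes therefore stayed higher than 0.079 tells.

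**Figure D1:**
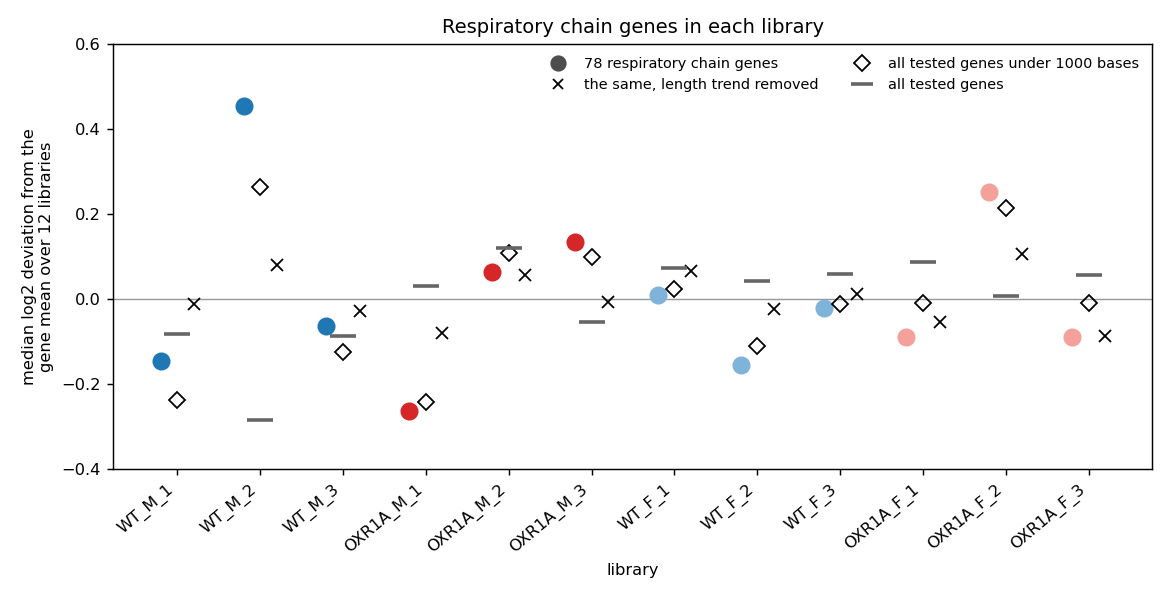
Median log2 deviation from the gene mean over 12 libraries, for each library: filled points are the 78 tested subunit genes, crosses the same genes with the length trend removed, open diamonds all tested genes under 1000 bases and dashes all tested genes. The subunit genes reach 0.45 in WT_M_2 and 0.25 in OXR1A_F_2, and 0.079 and 0.11 there once the length trend is removed. The removal keeps the offset of each library, and the dashes lie at -0.29 in WT_M_2 and 0.0076 in OXR1A_F_2.

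Within the WT males, 70 of 78 subunit genes were higher in WT_M_2 than in both other libraries, against 29.1% of all tested genes, and in 58 of them WT_M_2 was the highest of all 12 libraries. Atp5e, the epsilon subunit of ATP synthase with a transcript of 421 bases, had 305 FPKM in WT_M_2 and 152 and 156 in the other WT males. Ndufb7, an accessory subunit of complex I with 623 bases, had the largest log2 difference between WT_M_2 and the other WT males among the subunit genes, 0.99. Of the 7 members of 2000 bases or more, 4 were below and 3 above the mean of the other WT males in WT_M_2. Ndufs1, the largest iron-sulfur subunit of complex I, has a transcript of 2661 bases and had 36.8 FPKM in WT_M_2 against 49.8 and 47.7. Sdha (2900 bases), Atp5a1 (2471 bases), Uqcrc2 (1896 bases) and Atp5s (1485 bases) were the other members lower in WT_M_2 than in both other WT males. Across the 78 genes the log2 difference between WT_M_2 and the mean of WT_M_1 and WT_M_3 correlated with log2 transcript length at a Pearson r of -0.66, and across all tested genes at -0.58. This is a description across genes of the same 3 libraries. The subunit genes lay somewhat above other genes of their length: between 500 and 1000 bases, 42 subunit genes had a median difference of 0.64 and the 736 tested genes of that length 0.49. Ndufa10 (2020 bases), an accessory subunit of complex I, had 99.5 FPKM in WT_M_2 against 78.1 and 82.5, higher by 0.31 on the log2 scale. Sdhc (3171 bases) and Atp5g1 (4715 bases), assigned their longest listed transcript, were higher in WT_M_2 by 0.29 and 0.59 on the log2 scale, where all tested genes of 3000 to 5000 bases had a median of -0.35.

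**Figure D2:**
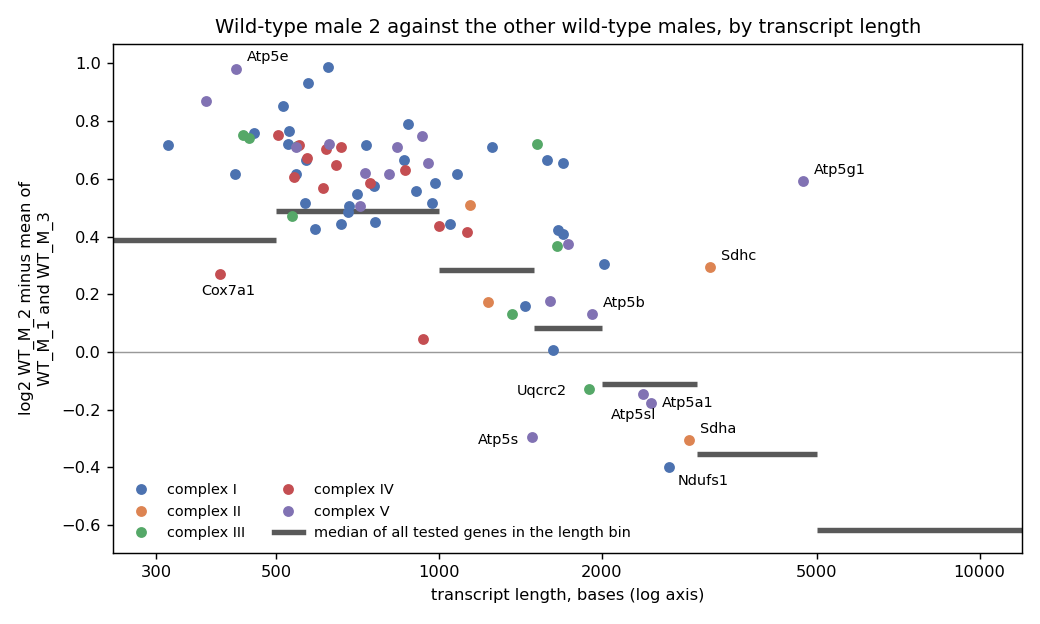
Log2 difference between WT_M_2 and the mean of the other WT males for each of the 78 tested subunit genes (points, coloured by complex) against the length of its longest listed transcript in bases on a log axis. Grey bars are the medians of all tested genes in the length bin; the bars are highest at 500 to 1000 bases (0.49) and fall beyond, and the subunit genes have a median of 0.64 there, -0.18 for the 5 of 2000 to 3000 bases and 0.44 for the 2 above 3000 bases (Sdhc and Atp5g1).

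The subunit genes were among the abundant transcripts of the liver. By mean over the 12 libraries 51 had at least 100 FPKM, 24 had between 10 and 100 FPKM, 3 had between 1 and 10 FPKM and 4 were under 1 FPKM in every library. They took 2.28% ± 0.303 (SD, n = 3) of the summed FPKM in WT males, 2.29% ± 0.223 in OXR1A-/- males, 2.25% ± 0.0976 in WT females and 2.36% ± 0.268 in OXR1A-/- females. The share reached 2.62% in WT_M_2 and 2.67% in OXR1A_F_2; without these libraries the mean of the remaining 2 was 2.10% and 2.21%. The ranges of the 4 groups overlapped.

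Complex I was the lowest of the complexes, with a median of 87.6 FPKM over its 35 genes. Ndufa6, an accessory subunit, was its highest at 269 FPKM ± 33.6 (SD over 12 libraries) and Ndufa11, a membrane-arm subunit, its lowest at 10.99 ± 2.04. The 3 core subunits chosen here, each binding a cofactor of electron transfer, lay between these. Ndufv1, which holds the flavin where NADH gives up its electrons, had 74.6 ± 13.4 FPKM (SD, n = 3) in WT males, 63.6 ± 1.90 in OXR1A-/- males, 71.96 ± 2.51 in WT females and 68.9 ± 6.07 in OXR1A-/- females. Ndufs7, which carries the last iron-sulfur cluster before coenzyme Q, had 71.1 ± 17.6, 61.2 ± 6.61, 74.5 ± 5.71 and 68.4 ± 8.89 FPKM in the same order. Ndufs1 had 44.7 ± 6.99, 50.7 ± 4.33, 50.1 ± 3.01 and 49.0 ± 1.58 FPKM, and its lowest library of the 12 was WT_M_2.

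Complex II had the narrowest range, from Sdhd, a membrane anchor, at 107 ± 10.6 FPKM to Sdhb, the iron-sulfur subunit, at 179 ± 28.1 (SD over 12 libraries). Sdha, the flavoprotein that oxidizes succinate, had 147 ± 17.97 FPKM (SD, n = 3) in WT males, 162 ± 13.3 in OXR1A-/- males, 163 ± 4.31 in WT females and 161 ± 2.65 in OXR1A-/- females. Sdhb had 159.8, 233 and 166 FPKM in WT males and 126, 183 and 159 in OXR1A-/- males, so the ranges overlapped. In WT_M_2 the Sdhb level was 1.84 times that of Sdha, and in the other WT males the lowest ratio was 0.991; Sdhb has 1142 bases and Sdha 2900.

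In complex III the small accessory subunit Uqcrb was the highest at 502 ± 77.3 FPKM and Uqcrfs1, the Rieske iron-sulfur protein, the lowest at 89.5 ± 9.36 (SD over 12 libraries). Uqcrfs1 had group means of 89.3 ± 5.34 FPKM (SD, n = 3) in WT males, 88.9 ± 12.6 in OXR1A-/- males, 86.6 ± 5.56 in WT females and 93.1 ± 15.2 in OXR1A-/- females. Uqcrc1, a core protein of the complex, had 106 ± 16.3, 102 ± 5.14, 114 ± 9.12 and 111 ± 9.35 FPKM in the same order.

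Complex IV had the highest median, 239 FPKM over its 14 tested genes, and the widest range as a ratio of its highest to its lowest tested gene. Ndufa4 led it at 525 ± 120 FPKM (SD over 12 libraries). Cox4i1, the largest nuclear-encoded subunit, had 322 ± 80.2 FPKM (SD, n = 3) in WT males, 299 ± 38.6 in OXR1A-/- males, 285 ± 30.2 in WT females and 301 ± 58.5 in OXR1A-/- females, and Cox5a had 168 ± 47.0, 138 ± 27.7, 134 ± 4.604 and 154 ± 32.2 FPKM.

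In complex V, Atp5b, the catalytic beta subunit, was the highest of all 82 genes at 575 ± 36.1 FPKM (SD over 12 libraries), rank 113 of the table. Its group means were 568 ± 30.5 FPKM (SD, n = 3) in WT males, 559 ± 46.2 in OXR1A-/- males, 593 ± 13.1 in WT females and 579.7 ± 54.3 in OXR1A-/- females. Atp5a1, the alpha subunit that alternates with beta in the catalytic head, had 325 ± 22.6, 346 ± 23.4, 345 ± 11.1 and 325 ± 12.7 FPKM. The beta to alpha ratio lay between 1.53 and 2.02 in the 12 libraries. The highest ratio was that of WT_M_2 alone (Atp5b 603 and Atp5a1 299 FPKM), and the lowest in WT males was 1.62. Atp5s was the lowest tested gene of the complex, at 4.50 ± 1.47 FPKM.

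**Figure D3:**
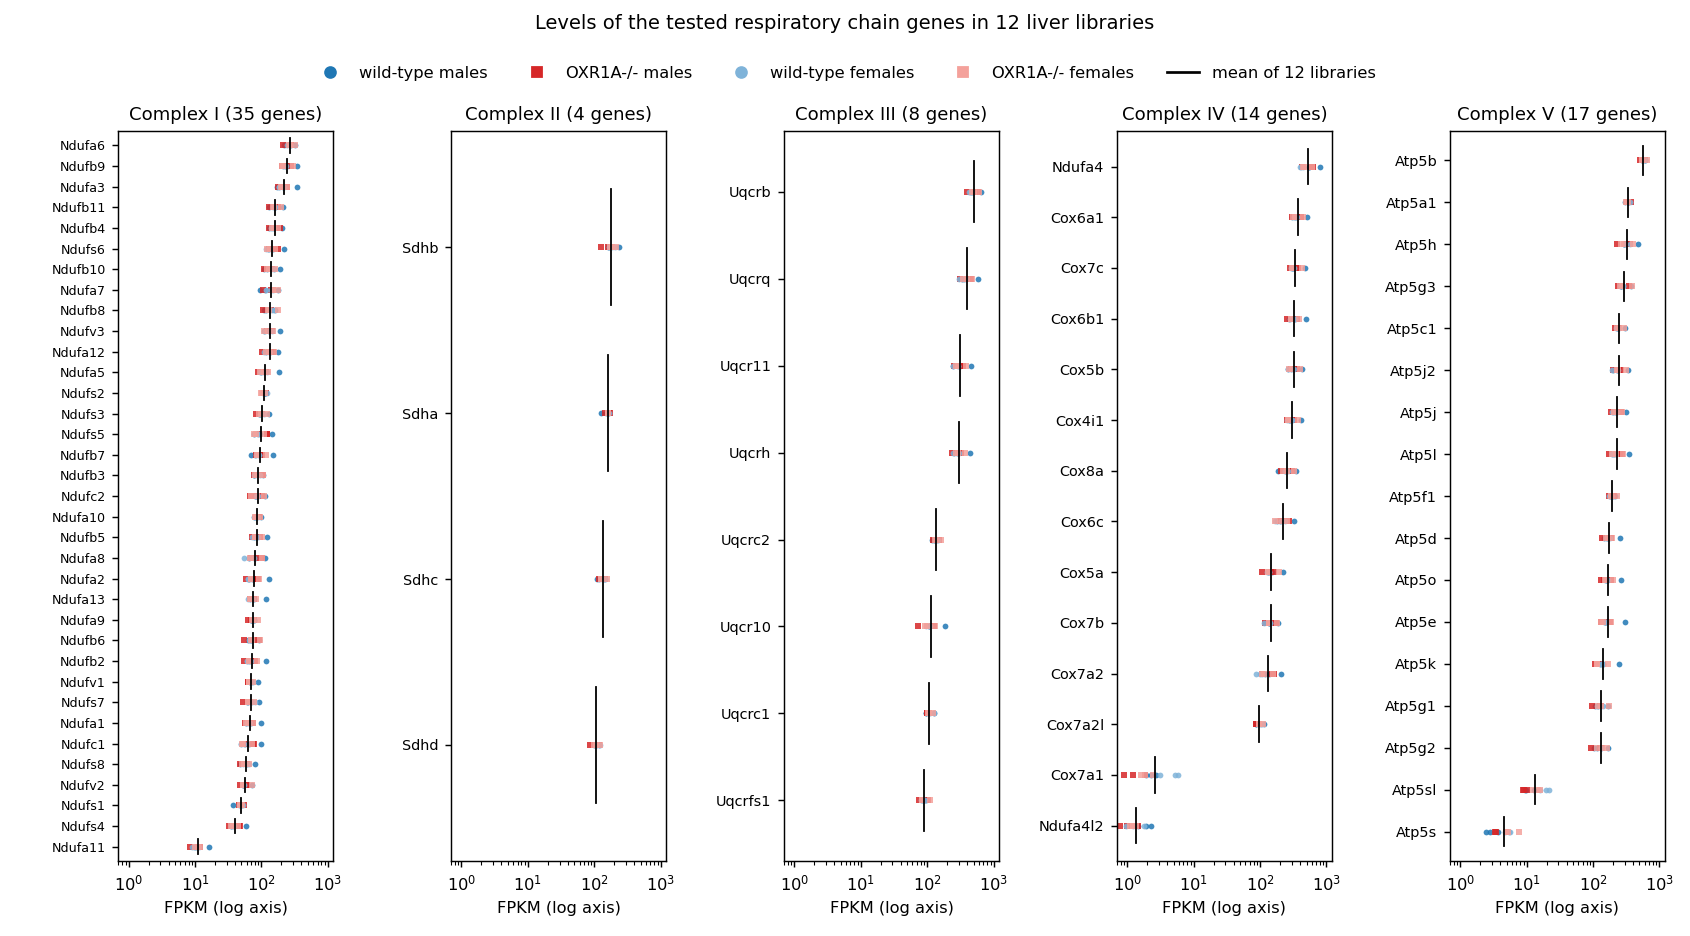
FPKM (log axis) of the 78 tested subunit genes in each of the 12 libraries, by complex; circles are WT and squares OXR1A-/-, dark shades males and light shades females, and the black bar is the mean of 12 libraries. The points of a gene lie close together, and 5 genes stand below the rest: Ndufa11, Cox7a1, Ndufa4l2, Atp5sl and Atp5s.

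Several subunits come as paralogs that differ between tissues, and the liver profile was lopsided. Cox4i1 had between 250.1 and 414 FPKM, whereas Cox4i2, the isoform known from lung and for its induction by low oxygen, had at most 0.40. Cox6a1 had between 298 and 512 FPKM, and Cox6a2, the heart and skeletal muscle isoform, at most 0.17. Cox6b1 had between 257 and 486 FPKM, and Cox6b2, the testis isoform, at most 0.68. Cox8a had between 187 and 352 FPKM, and the muscle isoform Cox8b at most 0.13, listed at 0 in all but 2 libraries. Cox7b had between 116 and 187 FPKM; Cox7b2 and Cox8c are not analysed here. Ndufa4 exceeded Ndufa4l2, a paralog known as a target of hypoxia signalling, between 236-fold and 619-fold. The 3 genes for the c subunit, which form the rotor ring of ATP synthase and differ mainly in their targeting peptides, shared their summed FPKM unevenly: Atp5g3 took between 49.1% and 57.1%, Atp5g1 between 20.9% and 26.4% and Atp5g2 between 21.9% and 25.5%. Respiratory chain genes have many processed pseudogenes, so the values of single members are uncertain wherever reads map to more than 1 copy.

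The first comparison asked whether loss of OXR1A changed the subunit genes in males. None of the 78 passed the test (limma on log2(FPKM + 1), Benjamini-Hochberg adjustment over 11514 genes, adjusted p under 0.05), and 2 had an unadjusted p under 0.05, against 23.9% of all tested genes. Of all tested genes 2.55% passed, 2.13% higher and 0.426% lower in OXR1A-/- males. All 78 intervals of 95% for the log2 difference lay within 1 of 0, so a change of more than 2-fold on this scale lies outside every interval. The median log2 difference of the subunit genes was -0.086 and that of all tested genes 0.19; 16 were above 0 and 62 below.

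The sign of that median depended on single libraries. Without WT_M_2 it was 0.068, with 61 of 78 above 0, and with the length trend removed -0.023, with 30 above 0. With both steps it was -0.0037. Without OXR1A_M_1 it was 0.033. Median-ratio scaling, which moved the median of all tested genes from 0.19 to -0.0014, moved that of the subunit genes to -0.33. No subunit gene passed under any of the 25 alternatives. By complex the medians ranged from -0.13 for complex V to 0.016 for complex II, whose transcripts are the longest of the complexes with a median of 2065.5 bases.

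The smallest p in this comparison belonged to Ndufa4l2, with 1.46, 1.91 and 2.24 FPKM in WT males and 0.78, 1.44 and 1 in OXR1A-/- males. The groups did not overlap, by the second decimal only (1.44 against 1.46 FPKM). The adjusted p was 0.123 (limma) for a log2 difference of -0.47 (SE 0.17). Cox7a1 had 2.28, 2.73 and 1.91 FPKM against 1.21, 1.87 and 0.89, again without overlap, with a log2 difference of -0.52 (SE 0.21) and an adjusted p of 0.168 in the same fit. Atp5k, the e subunit of ATP synthase with 371 bases, had 127, 246 and 142 FPKM against 107, 129 and 130, and the highest of these was WT_M_2; its log2 difference was -0.43 (SE 0.23, adjusted p 0.266, limma). Ndufv1 was the third gene without overlap between the groups, with 67.3, 90.1 and 66.5 FPKM against 61.8, 65.5 and 63.5. In all, 0 subunit genes were higher and 3 lower without overlap, while among all tested genes 21.2% were higher and 2.49% lower without overlap.

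In females the same comparison again gave 0 of 78 subunit genes past the test, with 0.0174% of all tested genes passing (0.00869% in each direction), and 2 subunit genes had an unadjusted p under 0.05, against 6.13% of all tested genes. The median log2 difference was 0.076 against 0.0030 for all tested genes, with 58 above 0; it was -0.037, with 25 above 0, without OXR1A_F_2, and -0.021 with the length trend removed. OXR1A_F_2 was the highest of the OXR1A-/- females in 75 of the 78 genes. The matching share of all tested genes was not computed. In this library all tested genes under 1000 bases had a median deviation of 0.21, against 0.25 for the subunit genes. The 95% intervals of 77 genes lay within 1 of 0, and the exception was Cox7a1. Without overlap 3 subunit genes were higher (Ndufa2, Ndufa7 and Ndufb6, accessory subunits of complex I) and 3 lower (Cox7a1, Atp5a1 and Atp5sl), against 9.22% and 8.42% of all tested genes.

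Cox7a1 is the heart and skeletal muscle isoform of a small complex IV subunit, a single-membrane-span protein at the edge of the complex. It had 5.20, 3.07 and 5.88 FPKM in WT females and 1.62, 1.84 and 2.41 in OXR1A-/- females, where every value was below the WT values. The log2 difference was -0.92 (SE 0.21, unadjusted p 0.00106), and the adjusted p was 0.427 (limma), so the difference did not pass. Cox7a1 was thus lower in OXR1A-/- than in WT libraries without overlap in each sex, and passed in neither. In males the gap was in the second decimal only (1.87 against 1.91 FPKM). Of all tested genes 2.49% in males and 8.42% in females were lower without overlap, and no share for both sexes together is given. The difference between the sexes in the Cox7a1 effect was 0.40 (SE 0.30, adjusted p 0.566, limma). Its liver isoform Cox7a2 had 107, 86.5 and 99.0 FPKM in WT females and 116, 155 and 105 in OXR1A-/- females (log2 difference 0.35, SE 0.23, adjusted p 0.870, limma). The ratio of Cox7a2 to Cox7a1 lay between 16.8 and 28.2 in WT females, between 43.6 and 84.3 in OXR1A-/- females, between 51.9 and 76.0 in WT males and between 81.0 and 183 in OXR1A-/- males. Within each sex the ratios of the genotypes did not overlap. Markers of skeletal muscle (Acta1, Ckm and Mb) summed to at most 0.12 FPKM and those of fat cells (Adipoq, Plin1 and Ucp1) to at most 0.62 FPKM in any library, and all 3 of each list were at 0 in the WT males. The fat cell markers were also all at 0 in OXR1A-/- females and summed to between 0.03 and 0.62 FPKM in WT females. The muscle markers reached 0.12 FPKM in WT and 0.03 in OXR1A-/- females. Between the male genotypes 5 of 7 macrophage, 5 of 8 sinusoidal endothelial and 1 of 6 stellate cell markers passed as higher in OXR1A-/- livers, and between the female genotypes none did; their part in the Cox7a1 values was not tested.

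The effect of genotype did not pass as different between males and females for any subunit gene (interaction, 0 of 78 past the test and 0 with an unadjusted p under 0.05, with 0.0261% of all tested genes passing, 0.0174% positive and 0.00869% negative, and 9.03% with an unadjusted p under 0.05). The median of the difference, male effect minus female effect, was -0.19 against 0.20 for all tested genes. It turned to 0.12, with 68 of 78 above 0, when WT_M_2 and OXR1A_F_2 were left out together, a choice made after seeing the data. The smallest p-values belonged to Ndufa4l2 (-0.43, SE 0.23), Cox5a (-0.45, SE 0.30) and Ndufa4 (-0.45, SE 0.28), with adjusted p of 0.544, 0.547 and 0.546 (limma).

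**Figure D4:**
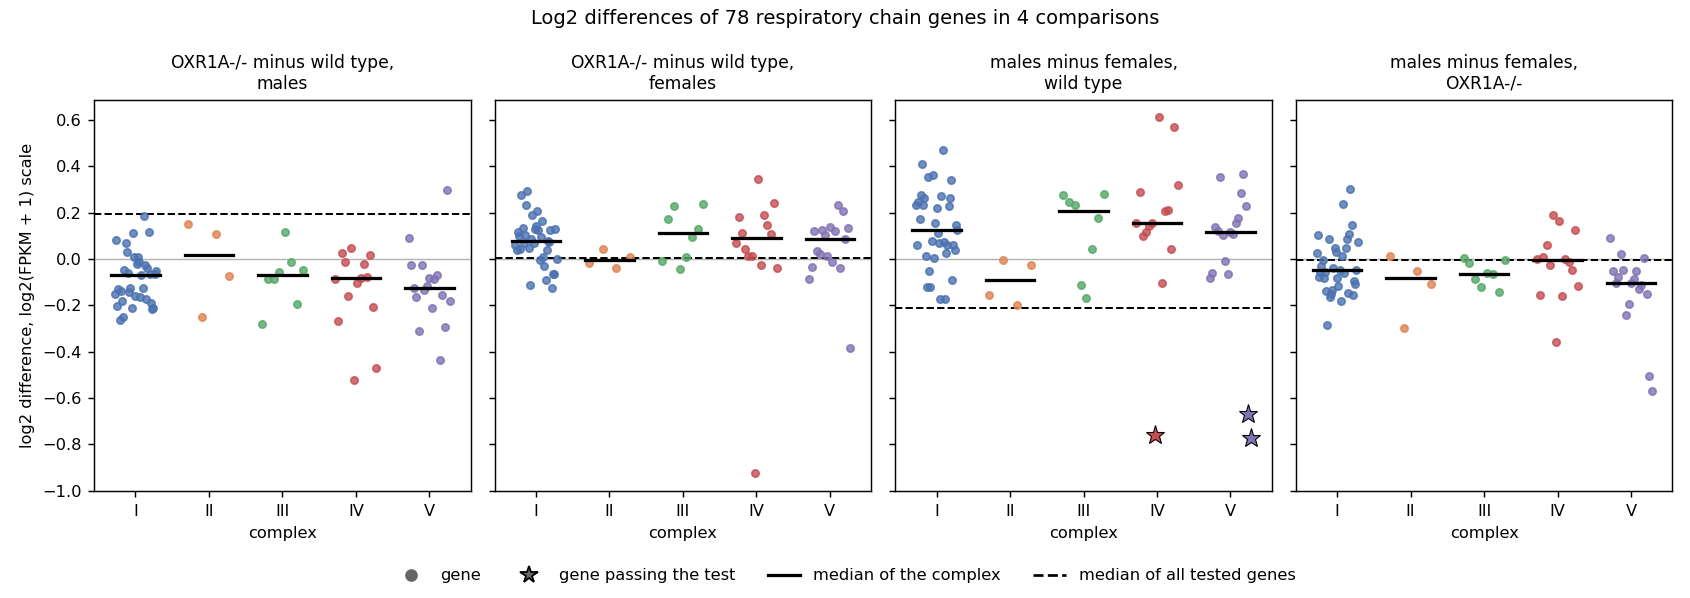
Log2 difference of each of the 78 tested subunit genes on the log2(FPKM + 1) scale, by complex, in 4 comparisons; stars mark genes that passed the test, solid bars the median of the complex and the dashed line the median of all tested genes. Stars appear only between WT males and WT females, for Cox7a1, Atp5s and Atp5sl.

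Between the sexes of WT livers 3 of the 78 subunit genes passed, all lower in males. Of all tested genes 13.4% passed, 2.31% higher and 11.1% lower in males, and an unadjusted p under 0.05 was found for 6 subunit genes and for 32.8% of all tested genes. The 3 genes were Atp5sl, Atp5s and Cox7a1. The first 2 carry ATP synthase names but are not structural subunits: Atp5sl, now named Dmac2, is an assembly factor for the membrane arm of complex I, and Atp5s, now named Dmac2l, is known as coupling factor B. The comparison of WT males with WT females shares its WT libraries with the comparisons of genotype.

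Atp5sl (chr7:25619414-25625550, GRCm38) had 9.60, 9.96 and 12.88 FPKM in WT males and 19.65, 21.87 and 16.03 in WT females, and every female value was above every male value. The log2 difference was -0.77 (SE 0.15) with an adjusted p of 0.00685 (limma), and the ratio of mean FPKM was 0.564. The OXR1A-/- livers showed the same order without overlap: 9.99, 9.19 and 8.86 FPKM in males and 15.84, 14.86 and 12.53 in females, with a log2 difference of -0.57 (SE 0.15) and an adjusted p of 0.0588, which did not pass. The OXR1A-/- females were below the WT females without overlap, by -0.38 on the log2 scale (SE 0.15, adjusted p 0.780, limma). WT_M_2 lay between the other WT males for this gene, and without it the sex difference in WT livers was -0.72 (adjusted p 0.0208, limma).

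Atp5s (chr12:69724913-69744665, GRCm38) had 2.78, 2.42 and 3.66 FPKM in WT males and 5.37, 4.78 and 5.61 in WT females. The groups did not overlap, with a log2 difference of -0.67 (SE 0.18), an adjusted p of 0.0320 (limma) and a ratio of means of 0.562. In OXR1A-/- livers it had 3.48, 4.82 and 3.29 FPKM in males and 4.84, 7.71 and 5.29 in females; the lowest female exceeded the highest male by the second decimal only, and the log2 difference was -0.51 (SE 0.18, adjusted p 0.178, limma). Without WT_M_2, its lowest WT male, the difference in WT livers was -0.57 with an adjusted p of 0.0880 (limma), which did not pass. The call was also lost without WT_M_1 (0.0682), WT_F_1 (0.0978), WT_F_2 (0.0707) or WT_F_3 (0.0909, adjusted p in each case).

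Cox7a1 (chr7:30184171-30186030, GRCm38) was lower in WT males than in WT females, by -0.76 on the log2 scale (SE 0.21, adjusted p 0.0381, limma), with a ratio of means of 0.489. In the OXR1A-/- livers the male and female values given above overlapped, and the difference was -0.36 (SE 0.21, adjusted p 0.482, limma). The call in WT livers was kept in 9 of 24 alternatives. It was lost without WT_M_1 (adjusted p 0.0708), WT_M_2 (0.0503), WT_M_3 (0.101), WT_F_1 (0.126), WT_F_3 (0.122) or OXR1A_F_2 (0.05196). Between these WT groups the markers of other liver cell types moved as well: 6 of 7 macrophage markers and 7 of 8 sinusoidal endothelial markers passed as lower in males, with summed levels of 67.2 to 105 FPKM against 184 to 299.7 and of 70.4 to 76.6 against 123 to 142. So did 3 of 6 stellate cell markers (90.2 to 109.5 against 142 to 159 FPKM) and 1 of 4 lymphocyte markers (4.31 to 9.35 against 6.83 to 11.64 FPKM for the list), while 0 of 7 hepatocyte and 0 of 4 cholangiocyte markers passed. Their part in the 3 calls was not tested.

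**Figure D5:**
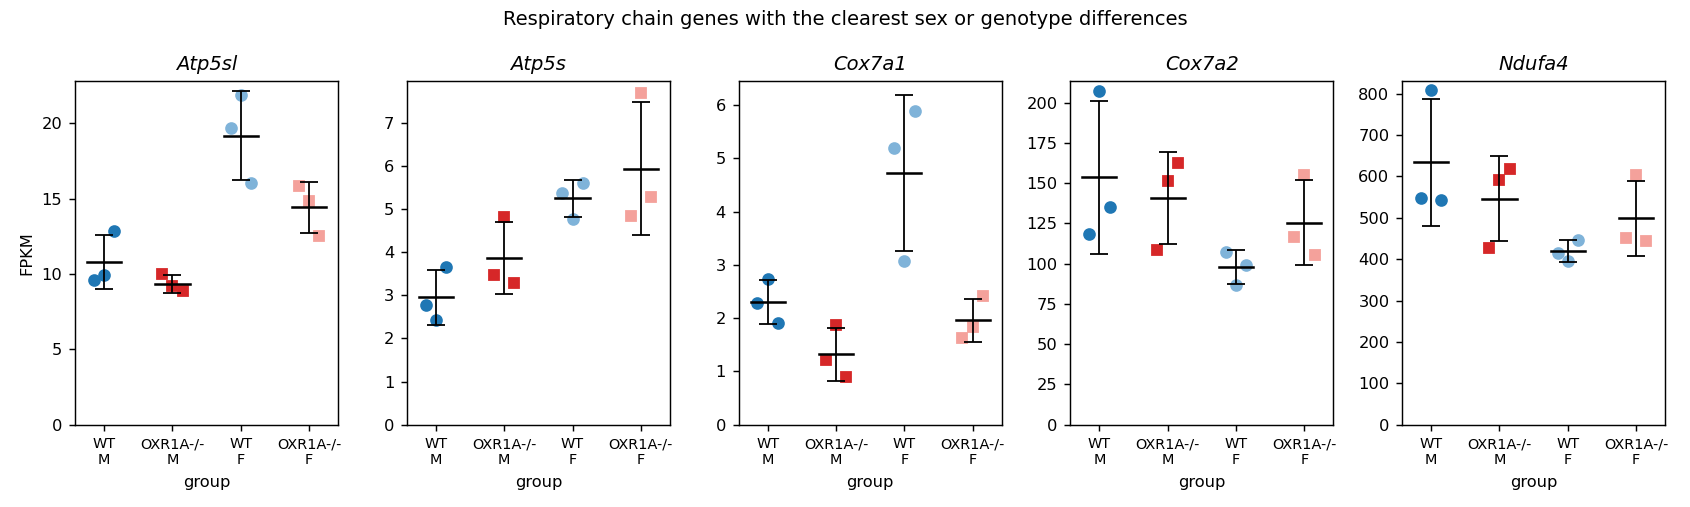
FPKM in each library for 5 subunit genes by group (M, males; F, females), with the mean and SD of 3 libraries. Atp5sl, Atp5s and Cox7a1 are lower in WT males than in WT females without overlap, and the highest WT male points of Cox7a2 (207 FPKM) and Ndufa4 (809.9 FPKM) are WT_M_2.

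Ndufa4 and Cox7a2 went the other way between the WT sexes. Ndufa4 had 548, 809.9 and 543 FPKM in WT males and 415, 395 and 447 in WT females, without overlap, with a log2 difference of 0.57 (SE 0.19) and an adjusted p of 0.0716 (limma). Cox7a2 had 118, 207 and 135 FPKM in WT males and 107, 86.5 and 99.0 in WT females, also without overlap, with a difference of 0.61 (SE 0.23, adjusted p 0.0907, limma). These did not pass as deposited. Both passed as higher in males with the length trend removed (Ndufa4 0.42, adjusted p 0.00866; Cox7a2 0.47, adjusted p 0.0155, limma), and still did when WT_M_2 was also left out (0.43, adjusted p 0.0240, and 0.42, adjusted p 0.0495). In OXR1A-/- livers their values overlapped between the sexes, with differences of 0.13 (SE 0.19) and 0.16 (SE 0.23). Removing the length trend gave 7 calls between the WT sexes, 2 higher in males (Ndufa4 and Cox7a2) and 5 lower (Atp5sl, Atp5s, Cox7a1, Ndufa7 and Ndufb8). Quantile normalization gave 3 calls higher in males (Ndufa4, Cox7a2 and Ndufa4l2) and 1 lower (Atp5sl).

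Across the 78 genes the median sex difference in WT livers was 0.12, males minus females, against -0.21 for all tested genes, and 58 were above 0. It was -0.042, with 30 above 0, without WT_M_2. Without overlap 4 subunit genes were higher (Ndufc1, Cox7a2, Ndufa4 and Atp5l) and 4 lower (Uqcrc2, Cox7a1, Atp5s and Atp5sl) in WT males, against 6.04% and 34.1% of all tested genes. In OXR1A-/- livers no subunit gene passed between the sexes, 2 had an unadjusted p under 0.05 against 15.5% of all tested genes, and 3.67% of all tested genes passed, 1.67% higher and 2.01% lower in males. The median was -0.055, against -0.0053 for all tested genes, and 0 subunit genes were higher and 4 lower in males without overlap (Ndufa7, Cox7a2l, Atp5s and Atp5sl), against 10.1% and 12% of all tested genes. After Atp5sl and Atp5s, Sdhb had the next smallest p in this comparison, with 126, 183 and 159 FPKM in males and 186, 209.8 and 175 in females (log2 difference -0.30, SE 0.18, adjusted p 0.477, limma).

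Promoters are shown for the genes that passed and, for contrast, for members picked because they hold several matches to a binding motif of NRF1. This factor is known for its sites in respiratory chain promoters. Such matches were found in 25% of the subunit genes with a window, so most members lack them. Windows from 250 bases before to 50 bases after the start were available in RefSeq (GRCm38.p6) for 68 of the 82 genes, as 74 windows. Each sequence below is the part of the window before the first listed transcript of the gene, 5′ to 3′ on the gene's strand, in lower case, with matches to any of 6 searched motifs in capitals.
Cox6a1, chr5:115348982-115349208, reverse strand: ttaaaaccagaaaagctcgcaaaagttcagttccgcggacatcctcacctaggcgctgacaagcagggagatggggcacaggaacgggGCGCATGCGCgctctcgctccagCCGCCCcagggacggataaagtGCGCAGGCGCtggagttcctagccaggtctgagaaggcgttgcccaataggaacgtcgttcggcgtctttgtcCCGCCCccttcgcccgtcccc
Sdha, chr13:74350281-74350490, reverse strand: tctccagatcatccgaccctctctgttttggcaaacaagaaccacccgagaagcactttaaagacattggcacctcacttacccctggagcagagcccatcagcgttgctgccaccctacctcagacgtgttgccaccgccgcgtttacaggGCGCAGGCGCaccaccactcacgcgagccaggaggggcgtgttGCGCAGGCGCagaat
Cox7a1, chr7:30183921-30184143, forward strand: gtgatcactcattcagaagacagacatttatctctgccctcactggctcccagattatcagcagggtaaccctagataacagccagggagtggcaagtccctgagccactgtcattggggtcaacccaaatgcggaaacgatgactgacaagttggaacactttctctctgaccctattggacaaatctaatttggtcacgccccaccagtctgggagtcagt
Atp5sl, chr7:25619164-25619413, forward strand: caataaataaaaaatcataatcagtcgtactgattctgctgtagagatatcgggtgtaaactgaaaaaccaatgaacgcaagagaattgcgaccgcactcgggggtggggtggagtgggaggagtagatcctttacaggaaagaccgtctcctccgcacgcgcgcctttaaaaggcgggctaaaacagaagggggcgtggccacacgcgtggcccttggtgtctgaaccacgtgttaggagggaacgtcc
Atp5s, chr12:69724695-69724912, forward strand: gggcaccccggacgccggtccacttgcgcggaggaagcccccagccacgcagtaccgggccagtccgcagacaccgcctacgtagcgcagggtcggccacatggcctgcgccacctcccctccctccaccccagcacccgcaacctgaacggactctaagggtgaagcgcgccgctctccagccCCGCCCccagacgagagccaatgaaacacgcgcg
In the Cox6a1 stretch the capitals are 2 matches to NRF1 and 2 to the Sp family, and in the Sdha stretch 2 matches to NRF1. The Cox7a1 and Atp5sl stretches hold no match, and the Atp5s stretch 1 match to the Sp family. Bases after the start were found near the 5′ end of a GENCODE transcript of the same name for the other genes shown, but not for Atp5s. The whole windows hold further matches outside the stretches shown. Atp5sl has a YY1 match 27 bases after the start, and in its second, overlapping window the same site lies at -53. Sdha has 1 more NRF1 match at -10 and Cox6a1 an ETS match at -16. No match says only that these letters are not in the stretch shown.

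The motifs were searched on both strands of the whole windows, and 1 pair of matches among 110 overlapped. Matches were counted in each window, so the 110 include sites shared by overlapping windows of a gene, such as the Atp5sl YY1 site. The shares below count each gene once. The NRF1 letters (GCGCA, any base, GCGC) were found in 17 of 68 subunit genes (25%), against 11.7% of tested genes and 5.19% of all genes with a RefSeq promoter. The YY1 letters AAGATGGC were found in 16.2% of the subunit genes, against 5.51% of tested genes and 3.19% of all genes. ERR letters (TCAAGGTCA) occurred in 2.94% of the subunit genes, namely Atp5g3 and Sdhd, against 0.317% and 0.466%. The ETS letters CCGGAAG occurred in 23.5%, against 20.5% and 9.93%. The Sp letters GGGCGG were in 39.7% of the subunit genes, against 66.7% of tested and 38.2% of all genes, and the TATA letters TATAAA in 8.82%, against 9.57% and 15.7%. By complex, NRF1 matches were in 7 of 31 genes of complex I, 2 of 3 of complex II, 1 of 5 of complex III, 1 of 13 of complex IV and 6 of 16 of complex V. YY1 matches were in 7 genes of complex I and 4 of complex V and in none of the other complexes. These shares are descriptions and were not tested.

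The subunit genes varied together across the libraries. Over the 75 members with a mean of at least 5 FPKM the median pairwise Pearson r across the 12 libraries was 0.77, against 0.18 for all tested genes, and it was 0.25 against 0.20 with the length trend removed. The points of these correlations are the same 12 libraries and share their length trends. OXR1A_M_1 was the lowest of the OXR1A-/- males in 71 of 78 genes, a count without a matching share of all tested genes. All tested genes under 1000 bases had a median deviation of -0.24 there, against -0.26 for the subunit genes. The summed FPKM of a complex moved accordingly: complex I reached 4992 FPKM in WT_M_2 against a lowest WT male value of 3153, while complex II, with the longest transcripts, reached 616 against a lowest value of 536.

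Genes that serve the chain without being matched by the symbol rule were examined by list. The 5 other subunit genes in the table (Cyc1, Ndufab1, Usmg5, 2010107E04Rik and Atpif1, the last an inhibitor of ATP synthase) had 0 calls in every comparison. Of 42 tested assembly factors, none passed between genotypes in either sex, and between the WT sexes 2 were higher and 2 lower in males, where 2.31% of all tested genes were called higher and 11.1% lower. Cox19, a copper-handling factor for complex IV, was 1.75-fold higher in WT males (log2 0.76, SE 0.17, adjusted p 0.0161, limma) and Sdhaf1, which helps insert the iron-sulfur clusters of Sdhb, 1.58-fold higher (0.62, SE 0.16, adjusted p 0.0264, limma). WT_M_2 was the highest WT male for both. Cox19 (2461 bases) had 37.4 FPKM there against 26.3 and 26.2, and Sdhaf1 (2490 bases) 18.2 against 14.7 and 16.9. Every WT female was lower. No fit without WT_M_2 is given for the genes of these lists. Acad9, a complex I assembly factor, was lower, with a ratio of means of 0.593 (-0.71, SE 0.12, adjusted p 0.00411, limma). WT_M_2 was its lowest WT male. Acad9 (3930 bases) had 10.8 FPKM there against 13.8 and 12.1, and every WT female was higher.

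Among 17 electron carriers and coenzyme Q synthesis genes, 1 passed as higher in OXR1A-/- males, where 2.13% of all tested genes did. The median log2 difference of the list was 0.16, against 0.19 for all tested genes. Etfdh, which passes electrons from fatty acid oxidation to coenzyme Q, had 116, 99.1 and 114 FPKM in WT males and 163, 157 and 174 in OXR1A-/- males, and every OXR1A-/- value was above every WT value. Its lowest WT male was WT_M_2, and its transcript has 2377 bases. Etfdh was 1.503-fold higher in OXR1A-/- males (log2 0.59, SE 0.11, adjusted p 0.0276, limma). In females it had 119.5, 136 and 149 FPKM in WT and 165, 158 and 148 in OXR1A-/- livers, which overlapped (log2 0.22, adjusted p 0.833, limma). The male effect exceeded the female effect by 0.37 (SE 0.16, adjusted p 0.544, limma), which did not pass. Coq7, a hydroxylase of coenzyme Q synthesis, was higher in males than in females in WT livers (1.89-fold, log2 0.85, adjusted p 0.0211, limma) and in OXR1A-/- livers (1.98-fold, log2 0.93, adjusted p 0.0294, limma). Of all tested genes 2.31% and 1.67% passed as higher in males in these comparisons. Coq7 (914 bases) had 27.8 FPKM in WT_M_2 against 19.4 and 18.5 in the other WT males, and every WT female was lower. This list had no further call in any comparison.

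Regulators of mitochondrial biogenesis, 19 tested, had no call between genotypes in either sex, and 3 were lower in WT males than in WT females: Mterfd3 (log2 -0.97, adjusted p 0.00726), the coactivator Ppargc1b (-0.78, adjusted p 0.0263) and Gabpb1 (-0.46, adjusted p 0.0328), all by limma. Ppargc1b reached 1 FPKM only in the WT females (1.78, 2.49 and 1.01). It thus entered the test only through the group where it was higher, and nothing is read from its call. WT_M_2 was the lowest WT male for Ppargc1b (3656 bases, 0.36 FPKM against 0.73 and 0.65) and Gabpb1 (4153 bases, 2.37 against 3.35 and 3.21). For Mterfd3 (1567 bases) it lay between the others. Of 14 citric acid cycle genes 2 were lower in WT males, Idh2 (-0.73, adjusted p 0.00264, limma) and Idh3g (-0.44, adjusted p 0.0440, limma), and of 7 adenine nucleotide carriers, porins and uncoupling proteins 2 were lower, Ucp2 (-1.33, adjusted p 0.0103, limma) and Vdac1 (-0.39, adjusted p 0.0443, limma). For Vdac1 (2022 bases) WT_M_2 was the lowest WT male, with 68.9 FPKM against 76.3 and 81.5. It was the highest for Ucp2 (7.21 FPKM) and Idh3g (51.6 FPKM), and lay between the others for Idh2. In this comparison 11.1% of all tested genes passed as lower, and nothing particular to these lists is read from their counts. Of 76 mitochondrial ribosomal proteins 1 was called in any comparison, Mrpl20, higher in WT males (0.54, adjusted p 0.0429, limma), where 2.31% of all tested genes were. Mrpl20 (764 bases) had 66.0 FPKM in WT_M_2 against 51.5 and 49.9 in the other WT males, and every WT female was lower. Cytosolic ribosomal proteins, 81 tested, had no call in any comparison and a median of -0.16 between OXR1A-/- and WT males, against -0.086 for the respiratory chain genes and 0.19 for all tested genes.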

How the data were processed

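Per the labels' protocols, polyadenylated RNA was selected from total liver RNA on oligo(dT) beads and reverse transcribed from random primers. The deposited values are FPKM for 18560 genes, per the file headers. TopHat2 and mm10 are named in the submitters' processing notes; the quantifier, annotation and read totals were not given in the sources used here, so depth is unknown. Groups follow the labels' genotype and sex, and 0 value columns were left out.

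Subunit genes were matched by symbol, and the members and lists were chosen with earlier results of these data known. Genes that reached 1 FPKM in 3 or more libraries were fitted on log2(FPKM + 1), which understates the change of low genes, with limma (version 3.58.1, R 4.3.3). The model had 1 mean for each group over 12 libraries and empirical Bayes variances that follow mean expression. Tests were two-sided, and Benjamini-Hochberg adjustment covered every tested gene. The fit was tested on simulated data. Medians over the subunit genes are descriptions without a test. No pair of libraries shared more than 0.295% identical values among genes of 5 FPKM or more, and all 12 were kept.

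Named genes followed a written rule: 11 core subunits, the isoform sets, every called subunit gene or, with none called, the 3 with the smallest p, the highest and lowest of each complex, and up to 3 genes per list and comparison. Genes named for not overlapping, or for their value in WT_M_2, were chosen after their values were seen. Transcript lengths (the longest listed, GENCODE M21) were found for 98.4% of the genes, coordinates came from the RefSeq table of GRCm38, and promoters from RefSeq GRCm38.p6. Protein sequences are not used here.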

Additional observations from a re-analysis of the deposited data

How the results depend on the processing

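Alternatives changed the pseudocount (0.1), the low-value filter (none, or a mean of 5 FPKM or more), the scaling (median-ratio or quantile), the length trend (removed, also without WT_M_2), the fit (the compared groups alone, a constant variance prior, array weights, a replicate block) and the libraries (each left out in turn); WT_M_2 and OXR1A_F_2 left out together, and median-ratio scaling with the length trend removed, were added after seeing the data. The effect of OXR1A loss gave 0 calls in males under every alternative; in females array weights gave 1, Atp5sl. Between the WT sexes the 3 calls became 1 without the low-value filter, 1 with a mean of at least 5 FPKM (which leaves out Atp5s and Cox7a1), 0 with median-ratio scaling, 7 with the length trend removed, 5 with that and without WT_M_2, 1 with a replicate block, 1 without WT_M_2 and OXR1A_F_2, and 11 (9 higher, 2 lower) with median-ratio scaling and the length trend removed; leaving out each library gave 1 to 3. Atp5sl kept its call in 24 of 25 alternatives, Atp5s in 12 of 24 and Cox7a1 in 9 of 24. Between the OXR1A-/- sexes, a mean of at least 5 FPKM gave 1 call (Atp5sl), removal of the length trend 2 (Ndufs5 higher, Atp5sl lower), and leaving out each library 0 to 1, the latter without WT_M_2. Median-ratio scaling moved the median of the subunit genes to -0.33 for OXR1A loss in males, -0.46 for the interaction and 0.43 between the WT sexes, and leaving out WT_M_2 and OXR1A_F_2 moved the interaction to 0.12; the cause was not tested. Same-numbered libraries did not deviate together throughout. Their correlations were 0.56, 0.11 and -0.27 between the male groups and -0.064, -0.13 and -0.023 between the female groups. Between the sexes they were -0.13, -0.29 and -0.15 in WT and 0.41, -0.11 and -0.32 in OXR1A-/- livers. The 0.56 was the highest of all pairings between the male groups, where a differently numbered pair reached 0.41. The numbers were not taken as pairs, and the replicate block changed no count other than the one above. Without Mup and Alb genes in the total, the subunit share was 2.78%, 2.55%, 2.52% and 2.61% in WT males, OXR1A-/- males, WT females and OXR1A-/- females. Coding length in place of transcript length was not run, since transcript lengths were at hand. Depth is unknown, which leaves counting error unmeasured for low genes such as Cox7a1 and Ndufa4l2.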
